A study of Homo sapiens with 8 samples.

Results

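Ago2 binding sites on the mRNAs of the mitochondrial ribosome and the respiratory chain were described in human 293S cells, with and without the translation inhibitor emetine. The sites were all listed Ago2 peaks whose gene symbol begins with MRPL, MRPS, NDUF, SDH, UQCR, ATP5, or COX followed by a digit. They numbered 151 of the 22506 listed peaks (0.671%) and lay on 73 of 6326 genes. 293S is a suspension-adapted derivative of the HEK293 line and was grown here as an adherent monolayer. Cells of the treated group received 20 µg/mL emetine for 60 minutes, and control cells received no treatment. From each treatment, 3 libraries of RNA crosslinked to Ago2 (CLIP) were made with Ago2 antibodies from Abnova, Santa Cruz and Sigma, plus 1 RNA-seq library, 8 libraries in all. The 3 CLIP libraries of a treatment came from aliquots of 1 culture, so their spread, and every p-value below, reflects aliquots and antibodies rather than separate cultures. In such bulk samples fewer cells and less RNA per cell cannot be told apart.

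Ago2 is the Argonaute protein that carries microRNAs to complementary sites on mRNAs, most often in the 3' UTR, where it lowers translation and mRNA stability. The mitochondrial ribosome makes the few respiratory chain subunits encoded by mitochondrial DNA, while all of its own proteins and most respiratory chain subunits are encoded in the nucleus, translated in the cytosol and imported. Complexes I and II pass electrons to ubiquinone, complex III passes them on to cytochrome c, complex IV reduces oxygen, and complex V, the ATP synthase, uses the resulting proton gradient. Emetine binds the small subunit of the cytosolic ribosome and stalls elongation, which holds ribosomes on the mRNA.

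The deposited table holds an average and a ratio per peak and no value per library. Whole reads per library were recovered from these values for all 151 peaks and for 22494 of all 22506 peaks (99.9%). The recovered libraries are numbered 1 to 3 within a treatment by falling value of 1 read, and which antibody made which library is unknown. Values by library are given in this order. A normalised read count is the number of reads times the value of 1 read in that library, which was 8.86, 3.00 and 2.81 with emetine and 8.0, 2.82 and 2.43 in controls. All listed peaks together held 40776, 104539 and 96761 reads with emetine and 39684, 117475 and 103349 in controls. Library 1 stood apart in both treatments: noncoding exons took 45.4% of its reads with emetine and 42.9% in the control, against 6.26% to 13.6% in the other 4 libraries. Of 7 markers of 293S cells looked for, NEFL and CDH2 had peaks and the other 5 did not, and 0 of 6 markers of other cell types had one. Read totals, ratios and intervals here cover counting error only.

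Ago2 peaks were found on mRNAs of every complex, with few peaks per mRNA. Of the 186 protein-coding genes with such symbols in the human RefSeq annotation, 72 had a listed peak (38.7%), against 29.9% of all 20043 nuclear protein-coding genes. The 20043 genes were not limited to those expressed in these cells, so the 2 shares are not matched for expression. By family the 72 genes were 20 of 49 MRPL, 13 of 28 MRPS, 14 of 46 NDUF, 5 of 8 SDH, 4 of 9 UQCR, 6 of 26 COX and 10 of 20 ATP5 genes. The remaining gene, ATP5EP2, is a pseudogene of ATP5E, and reads of the pair may have been split between near-identical copies. The 73 genes had 2.07 peaks each, against 3.56 over all genes with peaks; 40 genes (54.8%) had 1 peak, against 39.9% of all genes, and 9 genes had 4 or more. Neighbouring peaks were not independent. Of 74 neighbouring pairs on a transcript, 21 overlapped or touched and 7 had the same reads in all 6 libraries. Sums per gene can therefore count reads of overlapping peaks more than once, and their exact intervals do not allow for this.

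The peaks lay mainly in coding sequence, whereas most listed peaks lay in 3' UTRs. In the table's annotation 94 of 151 peaks (62.3%) were in coding sequence, 48 (31.8%) in the 3' UTR, 8 (5.30%) in the 5' UTR and 1 in a noncoding exon. Over all peaks with recovered reads, coding sequence held 33.2%, 3' UTRs 57.6% and 5' UTRs 4.95%. Weighted by reads the coding share was 65.9%, against 26.5% over all peaks. At the gene level, 37 of the 73 genes had peaks in coding sequence alone, 16 in the 3' UTR alone, 4 in the 5' UTR alone and 11 in both coding sequence and 3' UTR.

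The coding share was much alike for complexes I, II, IV and V and lower for the mitoribosome. Complex III had 2 of its 4 peaks in coding sequence. The coding share was 24 of 30 peaks for complex V, 6 of 8 for complex II, 73.3% of 30 for complex I and 72.2% of 18 for complex IV. The large mitoribosomal subunit had 61.8% of 34 peaks in coding sequence, and the small subunit 21.7% of 23. The small subunit thus stood apart with 16 of 23 peaks (69.6%) in 3' UTRs, of which 8 lay on the single mRNA MRPS25; without MRPS25, 8 of the 15 left were in 3' UTRs. Together the mitoribosomal peaks were 45.6% coding and the respiratory chain peaks 72.3%. Peaks on mRNAs of cytosolic ribosomal proteins were 57.8% coding. No test was made on these shares, since peaks of 1 mRNA share reads.

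**Figure D1:**
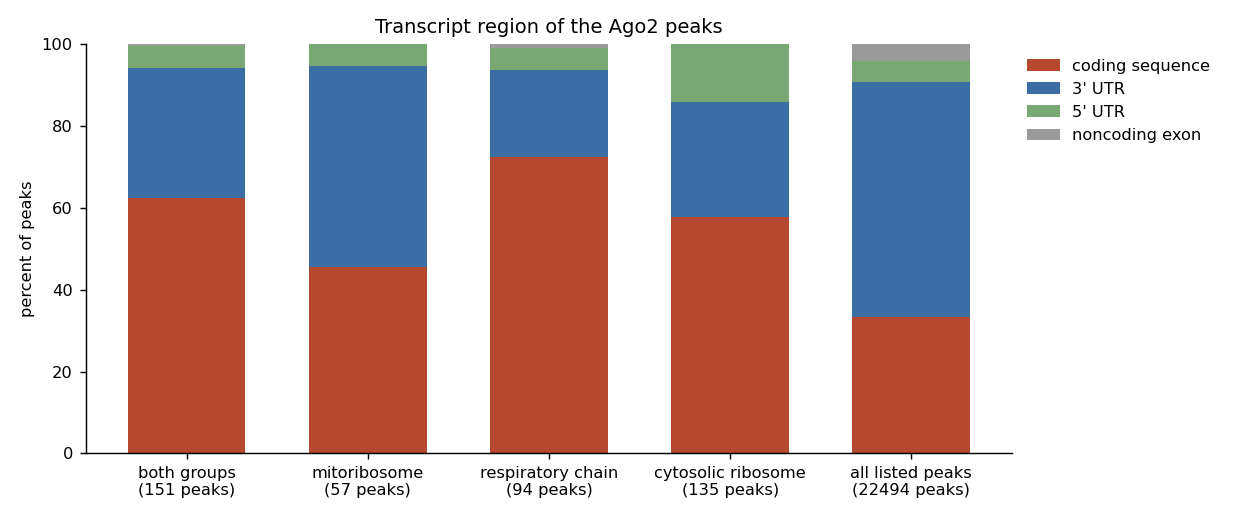
Percent of Ago2 peaks (vertical axis) in each transcript region for the mitoribosome and respiratory chain peaks together, each of the 2 groups, cytosolic ribosomal protein peaks and all peaks with recovered reads. Coding sequence takes 62.3% of the 151 peaks together and 33.2% of all peaks, and the respiratory chain bar (72.3%) exceeds the mitoribosome bar (45.6%).

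Most of these peaks were seen in few libraries. Of the 151 peaks, 35 had reads in 1 library alone (23.2%, against 26.5% of all peaks), and 83 in at most 2 (55.0%, against 54.7%). Reads in 5 or 6 libraries were found for 10 peaks (6.62%, against 12.4%), and 3 peaks had reads in all 6. The median peak held 15 reads over the 6 libraries, equal to the median of all peaks, and the median share of a peak's reads from its deepest library was 81.8%, against 78.6%. Library 1 gave no single-library peak in either treatment; 6 and 10 were seen only in emetine library 2 and 3, and 12 and 7 only in control library 2 and 3. Reads were absent from the controls at 26 peaks (17.2%, against 17.7% of all peaks) and absent from the emetine libraries at 27 (17.9%, against 20.2%). Every peak with recovered reads held at least 11, so a peak without reads in 1 treatment was listed through the other. The folds and limits given below for such peaks do not allow for this.

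**Figure D2:**
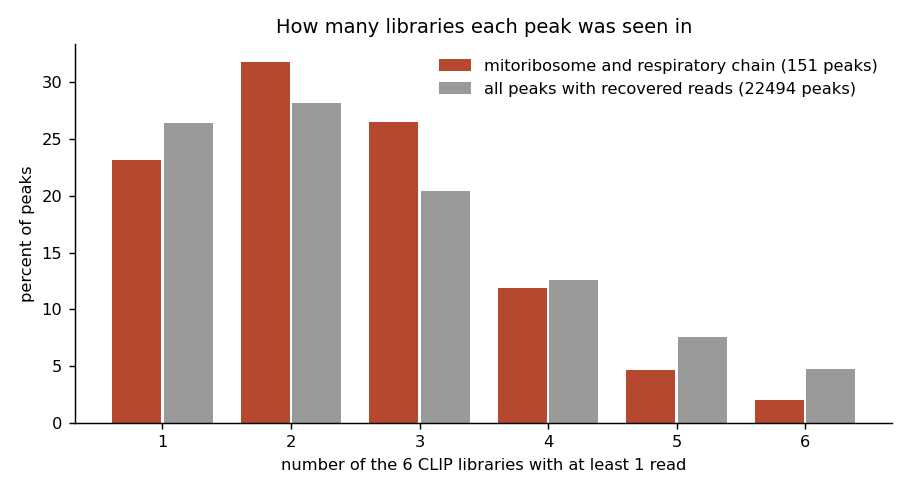
Percent of peaks (vertical axis) by the number of the 6 CLIP libraries with at least 1 read (horizontal axis), for the 151 mitoribosome and respiratory chain peaks and for all peaks with recovered reads. The 151 peaks reach higher at 2 and 3 libraries and lower at 4 to 6 libraries, where they number 28 (18.5%, against 24.9% of all peaks).

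The question the treatment addresses is whether Ago2 sits differently on mRNAs when translation is stopped. The reads of these peaks together took a similar share of all reads in both treatments. By library the share with emetine was 0.412%, 0.626% and 0.645% (0.561% ± 0.129, SD, n = 3), against 0.375%, 0.591% and 0.596% without it (0.521% ± 0.126, SD, n = 3). In both treatments library 1 was lowest, and the ranges overlapped. Coding peaks held 55.4%, 67.7% and 73.1% of these reads with emetine (65.4% ± 9.09) and 33.6%, 76.8% and 55.0% in controls (55.1% ± 21.6). The controls spanned the emetine values. The difference of 10.3 percentage points became -0.526 points without control library 1, with emetine library 1 kept. Without library 1 of both treatments, 67.7% and 73.1% remained with emetine, which lay between the 76.8% and 55.0% of the controls. Over all peaks, the coding share was 17%, 33.9% and 28.4% with emetine and 17.3%, 27.0% and 24.0% in controls.

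No peak of these mRNAs passed the test between treatments. By limma with Benjamini-Hochberg adjustment over all 22494 peaks, 0 of the 151 peaks had an adjusted p under 0.05, as did 0.0% of all peaks, and the lowest was 0.784. Before adjustment, 1 of the 151 (MRPL3) reached p under 0.05 in the higher direction, against 0.765% of all peaks, and 0 in the lower, against 0.298%. By limma-voom the adjusted threshold was passed by 0 of the 151, against 0.0% of all peaks, and p under 0.05 before adjustment was reached by 3, against 1.41%. The fitted change was above 0 for 78 peaks (51.7%, against 50.2% of all) with a median log2 change of 0.07, against 0.01. The median standard error of a peak's change was 2.07 on the log2 scale, so only very large changes could have been detected at this depth. The ratio of read totals, with totals under 3 reads set at 3, had a median of 0.03 on the log2 scale, against -0.07 over all peaks, and its sign was opposite to that of the fitted change at 16 of the 151 peaks.

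**Figure D3:**
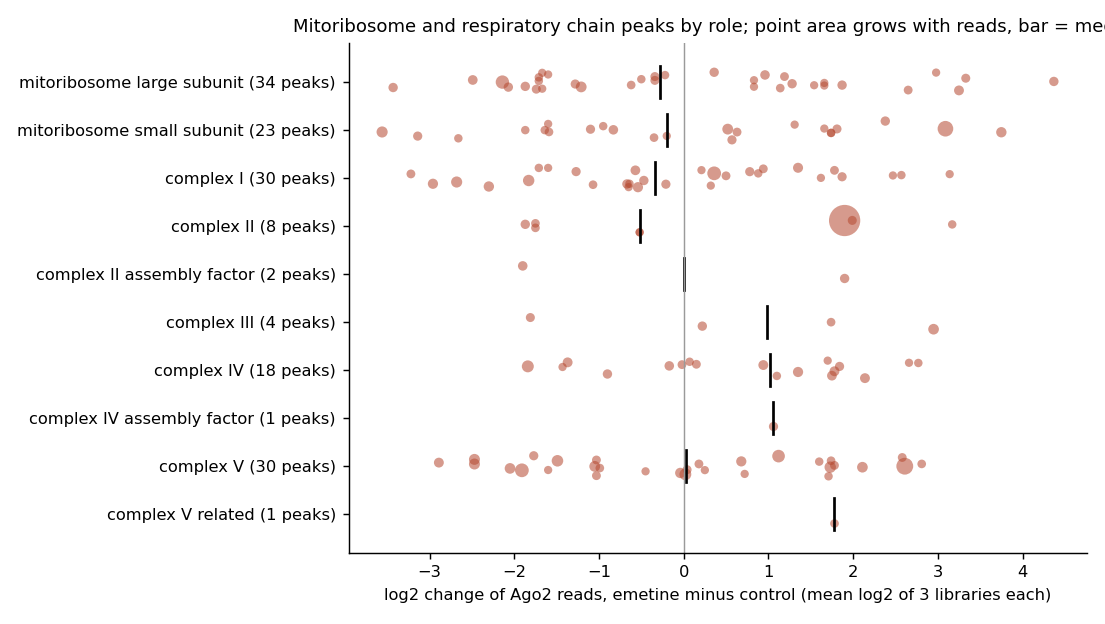
Fitted log2 change of Ago2 reads, emetine minus control (horizontal axis), for each of the 151 peaks in rows by role; point area grows with the reads of the peak and the black bar is the row's median. Rows spread on both sides of 0, with medians of 1.02 for complex IV, -0.34 for complex I and -0.52 for complex II. The largest point is the SDHB coding peak at 1.90.

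Every emetine library lay above every control library at 5 of the 151 peaks, against 2.54% of all peaks, and below at 1, against 1.43%. The 5 higher peaks lay on ATP5H, COX5B, MRPL3, MRPS25 and SDHB, and the lower one on MRPS26. Summed per gene, 39 of the 73 genes were above 0, against 51.1% of all genes, and 34 below. None of the 73 genes passed the limma test adjusted over 6315 genes, of which 0.0% did. Of the 73, 3 had an unadjusted p under 0.05, namely ATP5B, MRPL3 and SDHB, all above 0, against 1.08% of all genes in that direction and 0.76% in the other. The 3 are named after their values were seen. By limma-voom 0 of the 73 passed, against 0.0158% of all genes, and 2 reached p under 0.05 before adjustment, against 5.54%. The median log2 change per gene was 0.15, against 0.04 over all genes, but the ratio of read totals had a median of -0.40, against -0.02. The 2 summaries thus differ in sign for the 73 genes.

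Complex II, the succinate dehydrogenase that links the citric acid cycle to the chain, had 8 peaks in 3 genes. Of these peaks 3 were above 0 and 5 below, with a median log2 change of -0.52. Among them was the site with the most reads of all 151. It was the coding peak of SDHB, the iron-sulfur subunit, at chromosome 1, 17355205 to 17355231, minus strand (hg19, as listed). This peak had 25, 101 and 90 reads with emetine, against 5, 28 and 41 in controls. In normalised reads emetine had 222, 303 and 253, against at most 99.5 in a control. All 3 emetine libraries thus lay above all 3 controls, library 1 included. The ratio of read totals was 3.24 (exact 95% interval 2.48 to 4.28), and the fitted log2 change was 1.90 with a standard error of 1.17 (limma p = 0.104, adjusted p = 0.784). With 1 library left out in turn the change ranged over 1.52 to 2.17. With 290 of the 2905 reads of all 151 peaks (9.98%), the peak had more reads than any other of them, the next having 77, and 0.311% of all listed peaks had as many. Its share of these reads was 14.9%, 15.4% and 14.4% with emetine and 3.36%, 4.03% and 6.66% in controls.

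SDHB mRNA in the RNA-seq libraries was counted 454 times in the emetine library and 159 times in the control library, which after scaling is a log2 ratio of 0.17 (exact 95% interval -0.09 to 0.44). The other SDHB reads lay in a pair of overlapping coding peaks, which had 1, 0 and 0 reads with emetine and 0, 10 and 0 in controls. The difference in the share of all reads on these mRNAs, emetine minus control, was -0.0182 percentage points without the large SDHB peak and 0.0401 points with it. SDHA, the flavoprotein subunit, had 3, 0 and 9 reads with emetine, all in its 5' UTR, and 0, 26 and 0 in controls. The control reads lay in a pair of separate coding peaks with 13 reads each, all in control library 2. Whether the same reads were counted in both peaks is not known. SDHC, a membrane anchor, had 1, 12 and 0 reads with emetine, against 0, 17 and 2 in controls. These sites were each carried by 1 or a few libraries, and their treatments overlapped. The assembly factor SDHAF2, for flavin attachment, had 17 reads in emetine library 2 and none elsewhere. SDHAF1, for iron-sulfur insertion, had no emetine read and 18 reads in control library 2.

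**Figure D4:**
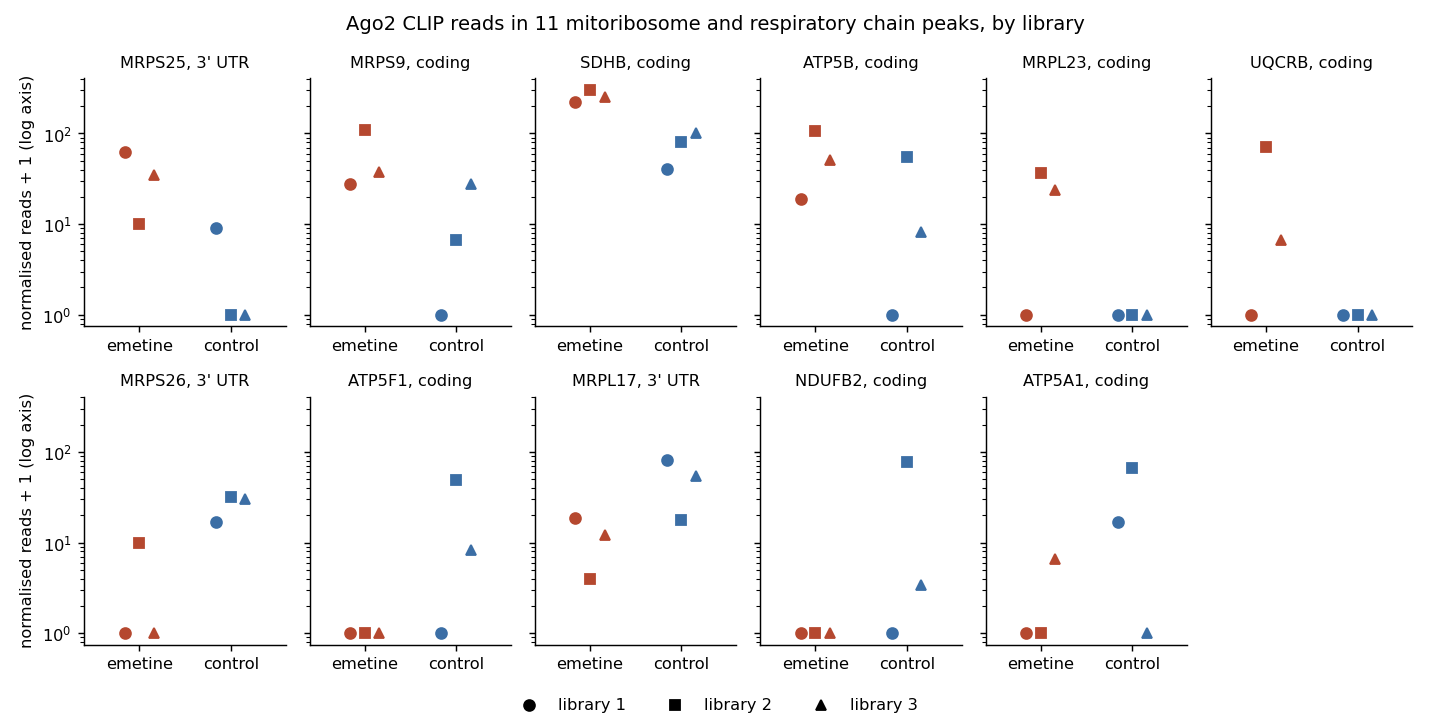
Normalised reads plus 1 (logarithmic vertical axis) in each emetine library (red, left) and control library (blue, right) for 11 of the 12 peaks that are, among those with at least 20 reads, the 6 with the smallest limma p in each direction, 1 per gene; the marker shape gives the library number. The groups do not overlap for MRPS25, SDHB and MRPS26, and many points lie at 1, which stands for no read.

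Complex I, which oxidises NADH, had 30 peaks in 14 genes, of which 14 peaks were above 0 and 16 below. NDUFA13, an accessory subunit also known as GRIM-19, had the most reads, 20, 15 and 34 with emetine and 19, 2 and 14 in controls over 7 peaks. Its emetine and control values overlapped; library 1, the shallowest, gave 29.0% of its emetine reads and 54.3% of its control reads, against 16.8% and 15.2% over all listed peaks. NDUFA11, a membrane arm subunit, had 0, 0 and 21 reads with emetine, against 0, 36 and 4 in controls. The coding peak of NDUFB2, a small accessory subunit, had no emetine read and 0, 27 and 1 reads in controls. With the emetine total set at a floor of 3 reads per treatment it was 8.40-fold lower. The exact 95% upper limit of its ratio was 0.156. Without control library 2 the NDUFB2 peak had 1 read left, and its fitted log2 change of -2.68 became -0.89. None of these peaks passed the test.

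Complex III, which carries electrons from ubiquinol to cytochrome c, had 4 peaks on 4 genes. UQCRB, also called the ubiquinone-binding protein, had a coding peak with 0, 23 and 2 reads with emetine and no control read. With the control total set at the floor of 3 reads it was 9.26-fold higher, and the exact 95% lower limit was 6.99-fold. UQCRH, the hinge protein, had 1, 10 and 0 reads in its 5' UTR with emetine and 4, 0 and 2 in controls. UQCRC2, a core protein, had 15 reads, all in control library 2. Each complex III mRNA thus drew most of its reads from 1 library.

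Complex IV, cytochrome c oxidase, had the highest median among the groups with at least 8 peaks, with 12 of 18 peaks above 0 and a median log2 change of 1.02, and 0 of 18 passed. Its peaks lay on 5 genes and several overlapped. COX8A, a small membrane subunit, had 3, 46 and 24 reads with emetine, against 9, 1 and 25 in controls. COX5A, a matrix-side subunit, had 2, 22 and 6 reads with emetine, against 1, 30 and 7 in controls. COX5B, a zinc-binding subunit, had 2, 16 and 13 reads with emetine and 0, 15 and 35 in controls. For all 3 genes the treatments overlapped. For COX5B the fitted change of the gene sum was 1.07 on the log2 scale while the ratio of read totals was 0.689. The 2 measures thus differ in sign for this gene, whose control library 1 had no read. The assembly factor COX15, which makes heme A, had 0, 10 and 1 reads with emetine and 0, 0 and 5 in controls.

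Complex V had 30 peaks in 10 genes, 16 above 0 and 14 below, with a median of 0.03. ATP5B, the catalytic beta subunit, had 10 peaks and 6, 71 and 95 reads with emetine, against 0, 64 and 34 in controls. In normalised reads emetine library 1 lay below control libraries 2 and 3, so the treatments overlapped. The ratio of read totals was 1.95 (exact 95% interval 1.51 to 2.53) and the fitted log2 change of the gene sum was 2.56 with a standard error of 1.21 (limma p = 0.0338, adjusted p = 0.799). It was 0.24 without control library 1, which had no ATP5B read, and 4.0 without control library 2. Some ATP5B peaks overlap and may share reads, for which the interval makes no allowance. At the border of the ATP5B coding sequence and 3' UTR, 3 overlapping peaks spanned chromosome 12, 57032064 to 57032174, minus strand. The coding one of them had 2, 35 and 18 reads with emetine and 0, 19 and 3 in controls. The middle one had 0, 26 and 1 reads with emetine and 0, 0 and 3 in controls, and the one farthest into the 3' UTR had 3, 6 and 0, against 0, 21 and 3. The last of these had fewer reads in total with emetine, but 21 of its 24 control reads came from 1 library and its fitted log2 change was 0.02.

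ATP5E, the epsilon subunit of the central stalk, had 1, 22 and 19 reads with emetine, against 2, 16 and 40 in controls. Its 2 coding peaks abut at chromosome 20, position 57605430. The one ending there had 0, 22 and 2 reads with emetine and 0, 15 and 0 in controls, and the one starting there 1, 0 and 4, against 2, 1 and 40. These sites drew on different libraries in both treatments. ATP5A1, the alpha subunit, had 1, 0 and 4 reads with emetine, against 4, 46 and 10 in controls, a ratio of read totals of 0.0926 (exact 95% interval 0.0290 to 0.228), with most reads in control library 2. A pair of its 3 peaks overlaps and had the same reads, so that they were counted in both. ATP5F1, a subunit of the peripheral stalk, had no emetine read and 0, 17 and 3 control reads. With the emetine total set at the floor of 3 reads it was 6.0-fold lower, and the exact 95% upper limit of the ratio was 0.225. Its fitted log2 change was -2.89, and -1.52 without control library 2.

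On the large mitoribosomal subunit, 16 of 34 peaks were above 0, with a median of -0.28. MRPL17 had the most reads, 8, 25 and 14 with emetine and 27, 8 and 42 in controls over 6 peaks. Its 3' UTR peak at chromosome 11, 6703198 to 6703251, had 2, 1 and 4 reads with emetine, against 10, 6 and 22 in controls. In normalised reads the highest emetine library (17.7) was just above the lowest control (16.9). The ratio of read totals was 0.205 (exact 95% interval 0.0771 to 0.464) and the fitted log2 change -2.14 with a standard error of 1.68 (limma p = 0.201, adjusted p = 0.784). The peak that overlaps it had 2, 0 and 3 reads with emetine, against 9, 0 and 12 in controls, and a further one that does not had 1, 8 and 2, against 2, 0 and 5. MRPL19 had 1, 12 and 13 reads with emetine and 0, 18 and 12 in controls, spread over 4 separate 3' UTR peaks. MRPL12, which is also known to bind the mitochondrial RNA polymerase, had 5, 9 and 1 reads with emetine and 1, 29 and 2 in controls.

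MRPL3, which lines the region of the peptidyl transferase centre, had the smallest p of all 151 peaks. Its coding peak at chromosome 3, 131206545 to 131206581, minus strand, had 3, 3 and 11 reads with emetine and none in any control (limma adjusted p = 0.784). With the control total set at the floor of 3 reads this peak was 6.30-fold higher, and the exact 95% lower limit was 4.59-fold. The other MRPL3 peak, also coding, had 0, 16 and 0 reads with emetine and 0, 0 and 1 in controls. MRPL23, located at the exit of the peptide tunnel, had 0, 12 and 8 reads with emetine and no control read. At the floor of 3 control reads it was 7.41-fold higher, and the exact 95% lower limit was 5.49-fold. MRPL51 had no emetine read in a coding and a 5' UTR peak together and 4, 25 and 0 in controls, with most reads in control library 2. At the floor of 3 emetine reads it was 8.70-fold lower, and the exact 95% upper limit of the ratio was 0.151. On large subunit mRNAs 8 of 34 peaks had reads in emetine libraries alone (23.5%, against 17.7% of all peaks) and 9 in controls alone (26.5%, against 20.2%).

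On the small subunit, 11 of 23 peaks were above 0, with a median of -0.20. MRPS25 had 42, 9 and 36 reads with emetine and 29, 1 and 14 in controls, over 8 peaks of its 3' UTR between 15091755 and 15093918 of chromosome 3. Library 1 supplied 48.3% of its emetine reads and 65.9% of its control reads, against 16.8% and 15.2% over all listed peaks. Of the 24 genes with at least 10 reads in each treatment, 3 drew over 25% of their reads from library 1 in both treatments. The part that the antibody or depth of library 1 has in this was not tested. Within the MRPS25 3' UTR, the peak at 15093496 to 15093538 had 10, 1 and 0 reads with emetine and 15, 0 and 0 in controls. The peak at 15093867 to 15093898 had 7, 3 and 12 reads with emetine, against 1, 0 and 0 in controls, with no overlap. Its ratio of read totals was 24.4 with an interval of 3.95 to 1010, set by the 1 control read, and its fitted log2 change was 3.75 with a standard error of 1.94 (limma adjusted p = 0.784). The fitted log2 change of the peak at 15093496 was 0.52 with a standard error of 2.0, and nearly all its reads came from library 1. These 2 sites were picked by their values, and a difference between them was not tested.

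MRPS9 had 1 coding peak, at chromosome 2, 105665651 to 105665691, with 3, 36 and 13 reads with emetine and 0, 2 and 11 in controls. In normalised reads the lowest emetine library (26.6) and the highest control (26.7) were nearly equal. The ratio of read totals was 4.44 (exact 95% interval 2.39 to 8.90), and the fitted log2 change was 3.09 with a standard error of 1.73 (limma p = 0.0752, adjusted p = 0.784). The change was 1.83 without control library 1 and 4.23 without control library 3. MRPS2 had 8, 0 and 2 reads with emetine and 15, 0 and 6 in controls, in 2 overlapping 3' UTR peaks without a read in library 2 of either treatment. MRPS26 was the peak with all emetine libraries below all controls, with 0, 3 and 0 reads with emetine and 2, 11 and 12 in controls. Its ratio of read totals was 0.133 (exact 95% interval 0.0258 to 0.437) and its fitted log2 change -3.56 with a standard error of 1.95 (limma p = 0.0678, adjusted p = 0.784). Leaving out 1 library in turn, the changes ranged over -4.67 to -3.01 for MRPS26, 3.16 to 4.81 for the MRPS25 peak and -2.77 to -1.50 for the MRPL17 peak. Over the alternative settings the 11 peaks plotted by library had no change of sign, and their adjusted p ranged over 0.766 to 1.0. These peaks were chosen by the smallest p in each direction in the same data, so their stable signs are no separate support. UQCRB, MRPL23, NDUFB2 and ATP5F1 had no read in 1 treatment, which left little room for a change of sign.

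The mRNA levels of these genes differed little between the treatments. With 1 RNA-seq library per treatment, holding 3668507 reads on genes with peaks with emetine and 1513065 in the control, there was no test. Of the 73 genes, 64 had at least 50 RNA reads, and their median log2 ratio was -0.04 with the authors' scaling, against 0.01 over 5804 genes, and 0.02, against 0.07, when scaled to the read totals. With the authors' scaling 30 of 64 were above 0 (46.9%, against 51.0% of all genes), and 35 were when scaled to totals. Of the 64 genes, 0 were beyond 1 or -1, against 0.844% above 1 and 0.793% below -1 of all genes; the ratios ranged over -0.76 to 0.60 with an SD of 0.33, against 0.35. The lowest was COX5B at 453 RNA reads with emetine, against 302 in the control library, and a log2 ratio of -0.76 (exact 95% interval -0.97 to -0.54). UQCR11, MRPL12, UQCRB and COX5A followed at -0.66, -0.63, -0.52 and -0.43. The highest was NDUFB8, a complex I subunit, at 677 RNA reads with emetine, against 176 in the control library, and a log2 ratio of 0.60 (0.36 to 0.85). MRPL43, NDUFB10, MRPS23 and MRPL22 had 0.59, 0.54, 0.53 and 0.47.

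**Figure D5:**
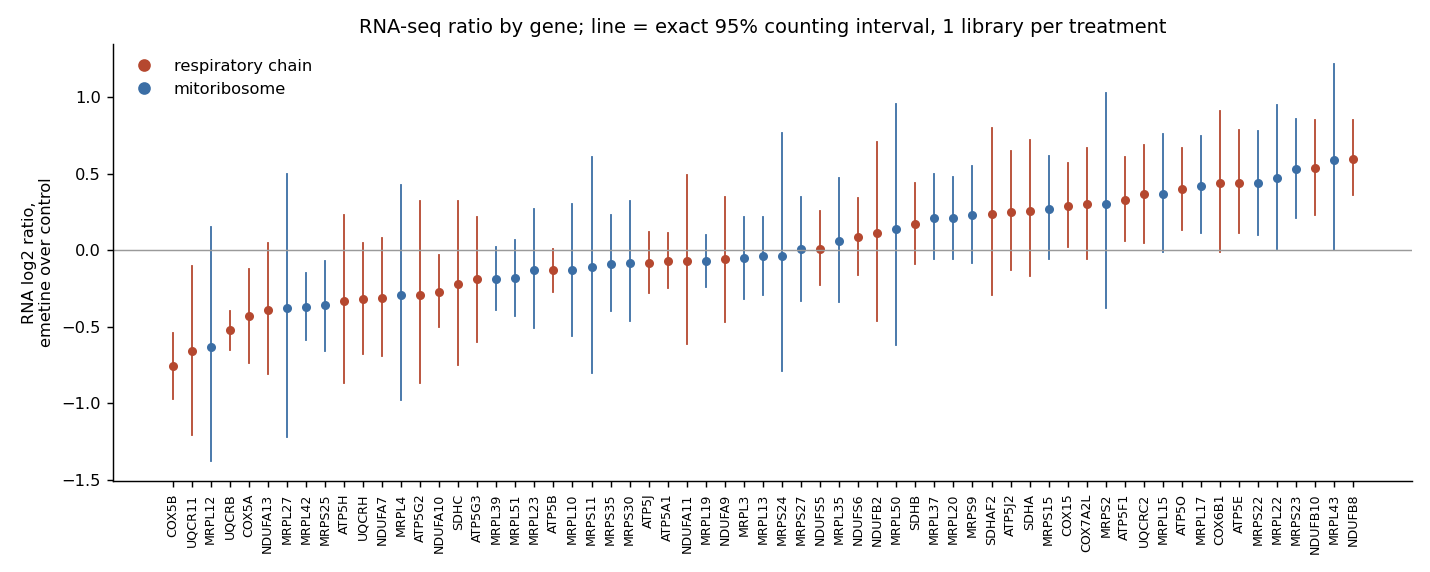
RNA-seq log2 ratio of emetine over control (vertical axis) for 63 of the 64 genes with at least 50 RNA reads, sorted, with exact 95% counting intervals; red marks respiratory chain and blue mitoribosome genes. The ratios run over -0.76 to 0.60, and both colours lie across the whole range.

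The ratio in the authors' deposited table sets Ago2 reads against RNA of the same gene. In the authors' deposited table, this log2 ratio of emetine over control had a median of 0.29 over the 151 peaks, against 0.04 over all peaks, and 82 peaks (54.3%) were above 0, against 50.8%. Complex IV had a median of 1.47 in the authors' deposited table, with 13 of 18 peaks above 0, and complex I had -0.24. Of the 18 complex IV peaks, 6 lay on COX8A, which had 21 RNA reads with emetine and 12 in the control. Another 5 lay on COX5B, with an RNA log2 ratio of -0.76. The deposited ratio of a peak is its fitted log2 change less the RNA log2 ratio of its gene. The fitted changes, which hold no RNA term, had a median of 1.02 over the same 18 peaks. Among peaks at or above the table's median average, the highest ratios lay on COX5B, MRPS25 and MRPL3 and the lowest on MRPS26, MRPS17 and MRPL51. The COX5B peak had 1, 5 and 3 reads with emetine and 0, 0 and 2 in controls, on the mRNA with the lowest RNA ratio. The MRPS17 coding peak had no emetine read and 2, 14 and 0 reads in controls. MRPS17 had 26 RNA reads with emetine and 7 in the control, and MRPS26 had 19 and 4. Both genes fell below the RNA read minimum used above. MRPL51 had 425 and 190. The RNA log2 ratios of MRPS17 and MRPS26 were 0.54 (exact 95% interval -0.69 to 2.0) and 0.88 (-0.69 to 2.92). The deposited log2 ratios of their peaks were -3.68 and -4.44, against fitted log2 changes of -3.14 and -3.56. For both peaks the deposited log2 ratio is by its definition the fitted log2 change less the RNA log2 ratio of the gene. No error can be given for the deposited ratios.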

How the data were processed

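Ago2 CLIP and RNA-seq libraries of 293S cells were analysed from 1 table. Per the file headers, a row of the deposited table gives where a peak lies, the region, symbol and RefSeq accession of its transcript, and 2 logarithms: the average of the normalised values, and their ratio with over without emetine. The deposited logarithms behave as natural log values, a base not stated in the headers, and were converted to log2. The submitters' processing notes name DESeq, TopHat, Bowtie 0.12.8 and the build hg19 without saying what each was used for. The peak caller, and the treatment of reads with several matches, are not stated in these sources.

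From average and ratio follows 1 value per treatment, equal to ln(1 + reads × factor) averaged across its 3 CLIP libraries, less ln(1 + RNA reads × factor). Factors and whole reads that satisfy this were searched within 2e-13. Of 3148 transcripts with 1 peak, 3120 matched with emetine and 3129 in the control, against 0 after a shift of the values; the 12 peaks not recovered were left out. Recovered peaks held at least 11 reads. All peaks, and separately all gene sums, were fitted as log2(reads × factor + 1) with limma 3.58.1 (R 4.3.3, trended variance, treatment as the sole term), unfiltered, with Benjamini-Hochberg adjusted p-values judged at 0.05; the step was tested on simulated data. limma-voom used robust variances. Ratios between total reads allow for depth through the sum of 1/factor in each treatment, with exact binomial 95% intervals from scipy 1.17.1; 0 reads were set at a floor of 3 over a treatment. Exact permutation tests of read shares were planned but are not given, since they would score the chosen peaks as a set.

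The peaks, gene lists and tests were chosen with earlier results of these data known. Genes named are, per complex or subunit, the 3 with the most CLIP reads; the 6 peaks with the smallest p in each direction with at least 20 reads; the 5 highest and lowest RNA ratios; and the 3 highest and lowest deposited ratios. Of these, 1 gene is not reported here. Others were named after their values were seen. Gene families were matched to RefSeq by transcript accession (72 of 73 genes).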

Additional observations from a re-analysis of the deposited data

How the results depend on the processing

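Over the alternative scalings, added constants (0.5 and 5), limma-voom, filters and left-out libraries, 0 peaks and 0 genes of the mitoribosome and respiratory chain passed the adjusted threshold. None of the 11 peaks plotted by library changed sign, but their choice by the smallest p in each direction made this likely. With peaks required to have reads in at least 3 libraries, 68 of the 151 peaks remained, 39 were above 0 and 29 below, and their median was 0.51, against 0.22 over all peaks; of 41 genes under the same filter 26 were above 0 and 15 below. The median change per gene was 0.15 as reported, 0.01 with scaling to library totals and -0.08 with the added constant of 5. With 1 library left out in turn, the median change per gene ranged over -0.38 to 0.39; the lowest value came without control library 1, where the median of all genes was -0.37. No paired analysis was possible because the recovered libraries cannot be tied to an antibody by any label. With a term for library 1 against the others, chosen after seeing the data, 0 of the 151 peaks passed (5 at p under 0.05 before adjustment, against 1.94% of all peaks, with a median standard error of 2.12). Of the 73 genes 0 passed and 3 reached that p, against 3.67% of all genes, while 3 of 6315 genes passed. Most peaks hold few reads in few libraries, which limits what could be detected.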

Other observations

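Other mRNAs of mitochondrial gene expression and metabolism had Ago2 peaks as well, and 0 of their peaks passed the adjusted limma test in any of the lists, where the smallest adjusted p was 0.784; 0 had an unadjusted p under 0.05. Factors of mitochondrial gene expression had peaks on 13 of 35 genes, 14 peaks above 0 and 17 below. LRPPRC, which stabilises mitochondrial mRNAs, had 0, 31 and 33 reads with emetine and 1, 0 and 0 in controls. TUFM, the mitochondrial elongation factor Tu, had no emetine read and 0, 13 and 13 reads in controls. These mRNAs thus had opposite balances, and in each case library 1 held at most 1 read. Mitoribosomal proteins with other symbols had peaks on 5 of 7 genes, 6 peaks above 0 and 2 below. Citric acid cycle genes had peaks on 8 of 18, with 7 above 0 and 3 below; PDHB, a subunit of pyruvate dehydrogenase, had 2, 18 and 7 reads with emetine and 0, 0 and 2 in controls.

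Electron carriers and assembly factors outside the named families had peaks on 11 of 23 genes, 10 peaks above 0 and 11 below. ATPIF1, the inhibitor of the ATP synthase, had 9, 12 and 1 reads with emetine and 0, 10 and 3 in controls. Import and folding factors had peaks on 13 genes, 18 peaks above 0 and 15 below, and HSPD1, the mitochondrial chaperonin, had 6, 15 and 44 reads with emetine and 0, 33 and 9 in controls. Of the regulators of mitochondrial genes, 3 of 8 had peaks, 6 above 0 and 6 below; PPRC1, a coactivator, had 12, 11 and 29 reads with emetine and 9, 9 and 3 in controls. In normalised reads the treatments overlapped for ATPIF1, HSPD1 and PPRC1. Cytosolic ribosomal protein mRNAs had 81 of 135 peaks above 0 with a median log2 change of 0.28, against 0.01 over all peaks, and 0 passed.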
